A study of Mus musculus with 2 samples.

Results

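The p53 target genes described here are Cdkn1a, Mdm2, Ccng1, Phlda3, Trp53inp1, Sesn2, Gdf15, Zmat3, Bax and Perp, 10 of the 28692 genes counted in each library. They were taken by symbol, with no threshold on their levels, and all 10 had unique molecular identifiers (UMIs, 1 per captured RNA molecule) in both libraries. Epcam+ cells, carrying a surface protein of epithelium, were purified by flow cytometry from the lungs of C57BL/6 mice, and their RNA was counted by droplet 3′ sequencing. The data hold 1 library labelled NAPH, an abbreviation that the labels do not spell out, and 1 library labelled Control. The labels state no dose or timing for NAPH and no number, age or sex of mice, and they name no genotype beyond the C57BL/6 strain for either library. With 1 library per condition no test was possible, and each difference below is between these libraries or between cells within 1 of them.

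p53 is a transcription factor that is stabilised after DNA damage and other stresses and that switches on genes for cell cycle arrest, apoptosis, DNA repair and metabolic restraint. One of its targets, Mdm2, encodes the ubiquitin ligase that marks p53 for destruction, so that the pathway limits itself. In mouse lung, p53 activity has been linked to the transitional state through which alveolar type 2 (AT2) cells pass on the way to type 1 cells, and its relative p73 is known as a factor that airway cells need to form multiple cilia.

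In each library, cells were sorted into gates by fixed RNA thresholds per 10000 UMIs. AT2 cells, which make surfactant, held at least 500 UMIs of Sftpc. They were split into cells with at least 5 UMIs of Areg plus Sprr1a (Areg or Sprr1a AT2 cells) and other AT2 cells. Secretory cells held at least 1000 UMIs of Scgb1a1, and ciliated cells held at least 10 of Foxj1, Ccdc153 and Tmem212 together. Myeloid cells were those in none of these gates with at least 2 UMIs of Ptprc, Coro1a and Cd52 together. The Areg or Sprr1a AT2 gate held 154 NAPH and 27 Control cells, or 6.16% and 1.51% of the AT2 cells of each library. The other AT2 gate held 2346 and 1763 cells, the secretory gate 186 and 751, the ciliated gate 198 and 187 and the myeloid gate 505 and 447, NAPH first. In no gate were 167 NAPH and 25 Control cells, and 16 and 11 cells that met more than 1 gate were left out.

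The NAPH library held 38497783 UMIs in 3685 barcodes and the Control library 41699755 in 3298, and 14 barcode sequences occurred in both. The 8 ciliated markers, which include the 3 that set the gate, summed to 13050 UMIs per 1000000 (CPM) in NAPH and 17730 CPM in Control ciliated cells, against 59.1 to 293 CPM in the other 4 gates of either library. The 8 myeloid markers summed higher in other AT2 cells, at 35280 CPM in NAPH and 40260 CPM in Control, than in the myeloid gate, at 30300 and 29890 CPM. The list holds Lyz2 and Cd74, which AT2 cells are known to express too, and their part in the sums was not tested. Ptprc, a gene of the rule, stood at 179 and 199 CPM in the myeloid gate, against at most 3.74 CPM in the other gates. Within the myeloid gate of the NAPH library, 86 of 505 cells held Igkc, an immunoglobulin light chain gene of B cells and plasma cells, at a summed level of 5625 CPM, against 18.2 to 20.4 CPM in the other NAPH gates and 0 UMIs in the Control myeloid gate. T and NK cell genes summed to 50.2 CPM there in NAPH and 0.532 CPM in Control, so myeloid names the rule of this gate and not every cell in it. Genes of one gate were also counted at low levels in others, as RNA from outside the cell can be. Sftpc in the secretory, ciliated and myeloid gates stood at 2.13% to 2.74% of its level in other AT2 cells in NAPH and at 0.887% to 1.08% in Control. Scgb1a1 in the AT2, ciliated and myeloid gates stood at 0.694% to 2.53% of its secretory level in NAPH and at 1.81% to 4.05% in Control.

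Of the 10 genes, 7 had a promoter entry in RefSeq (GRCm38.p6), with 9 windows of 300 bases. These were searched for the p53 consensus site, a pair of adjacent decamers of 20 bases in all, which reads the same on both strands. Of these, 2 windows came within 1 mismatch of it, one of Cdkn1a and one of Ccng1, as did 0.0883% of the 32851 mouse promoter windows. The Bax window came within 3 mismatches, as did 6.29% of all windows, and the other 6 within 5, as did 76.6%. The upstream Cdkn1a window was also the one member window that held the paired core CATGNNNNNNCATG, which lies inside the consensus site and was found in 0.712% of all windows. A match is a description of letters and does not show that p53 binds there, and windows without one say nothing about sites elsewhere in the gene. The bases before the annotated start are printed for the 3 best matches, 5′ to 3′ on the strand of the gene, with the best 20-base match in capitals.

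Cdkn1a (chr17:29090729-29090978, plus strand, match at chr17:29090928-29090947): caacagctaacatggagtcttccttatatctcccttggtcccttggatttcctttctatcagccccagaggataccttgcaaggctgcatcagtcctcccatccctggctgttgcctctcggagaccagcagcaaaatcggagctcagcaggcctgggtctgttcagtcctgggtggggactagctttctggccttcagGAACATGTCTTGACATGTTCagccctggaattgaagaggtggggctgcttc

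Ccng1 (chr11:40755287-40755536, minus strand, match at chr11:40755462-40755481): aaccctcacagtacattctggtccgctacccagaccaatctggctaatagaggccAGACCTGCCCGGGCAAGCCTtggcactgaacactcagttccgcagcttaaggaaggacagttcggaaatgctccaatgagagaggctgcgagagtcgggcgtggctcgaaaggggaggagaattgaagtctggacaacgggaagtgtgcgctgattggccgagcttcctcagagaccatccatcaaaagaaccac

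Bax (chr7:45466899-45467148, minus strand, match at chr7:45467090-45467109): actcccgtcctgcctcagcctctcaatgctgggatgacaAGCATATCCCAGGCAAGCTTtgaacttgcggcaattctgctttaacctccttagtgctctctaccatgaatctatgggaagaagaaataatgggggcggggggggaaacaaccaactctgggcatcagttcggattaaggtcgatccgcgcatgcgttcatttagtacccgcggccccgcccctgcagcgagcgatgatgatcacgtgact

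In the GENCODE vM21 annotation of GRCm38 all 10 are protein-coding genes. Cdkn1a lies at chr17:29090976-29100727, Mdm2 at chr10:117688875-117710758, Phlda3 at chr1:135766119-135769136, Trp53inp1 at chr4:11156431-11174379 and Perp at chr10:18845020-18857073. Sesn2 lies at chr4:132492032-132510501, where Gm12981, which is also in the deposited table, overlaps it on the same strand. No source used here states how the counting treated the overlap.

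Levels are UMIs summed over the cells of a gate, per 1000000 UMIs of the same cells (CPM), and ranges in parentheses are exact 95% intervals that cover counting error only, not differences between cells, animals or sorts. A level here is a count of 3′ ends, so it needs no correction for transcript length. Comparisons are given as ratios relative to the median ratio of all genes with at least 20 UMIs in the pair of sums, and a gene is called higher or lower past 1.5 times. This scaling matters because AT2 and secretory cells spend a large part of their UMIs on Sftpc and Scgb1a1. The median gene stood 0.71 to 0.74 higher on the log2 scale in ciliated than in other AT2 cells, 1.33 to 1.77 higher than in secretory cells and 0.48 to 0.72 higher than in myeloid cells. Between libraries it stood 0.60 higher in NAPH secretory cells than in Control ones and 0.10 or less from 0 in the other gates.

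Among the 5 gates, ciliated cells had the highest CPM of Cdkn1a, Mdm2, Phlda3 and Trp53inp1 in both libraries. These levels are not scaled to the median gene. On that scale Cdkn1a in ciliated cells exceeded myeloid cells 1.57 times (1.40 to 1.76) in NAPH and 2.18 times (1.89 to 2.52) in Control. Ciliated cells were not compared with Areg or Sprr1a AT2 cells on that scale. Cdkn1a, which encodes the cyclin-dependent kinase inhibitor p21, reached 342 CPM (316 to 370) in NAPH and 335 CPM (302 to 371) in Control ciliated cells. Its next level was 158 CPM in NAPH and 161 CPM in Control Areg or Sprr1a AT2 cells, followed by myeloid cells at 132 and 110 CPM, other AT2 cells at 58.4 and 41.7 CPM and secretory cells at 30.4 and 6.90 CPM. The intervals of the Areg or Sprr1a AT2 cells and the myeloid cells overlapped in both libraries, at 138 to 179 and 122 to 144 in NAPH and at 114 to 220 and 100 to 122 in Control. The order of the gates was the same in both libraries.

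**Figure D1:**
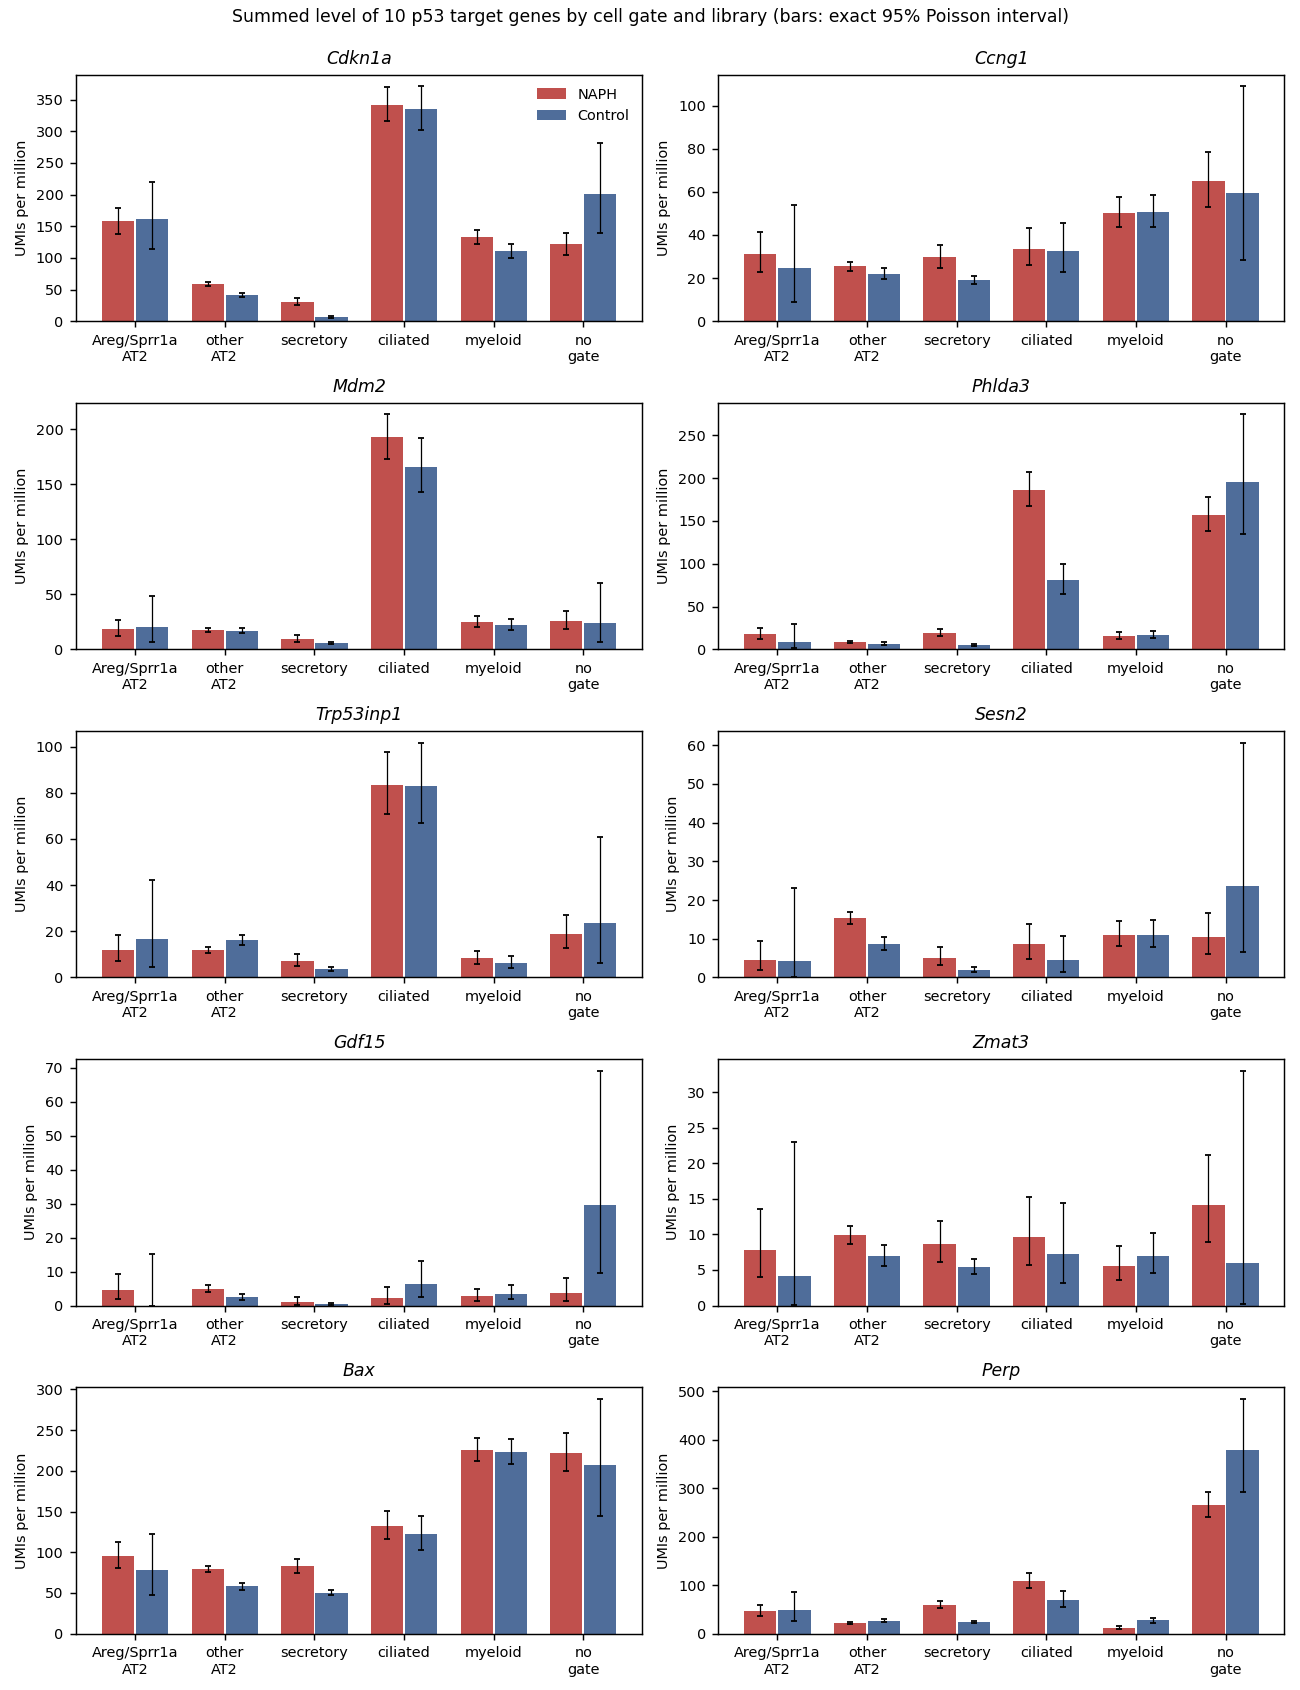
Summed level of each of the 10 genes (y axis, CPM, each panel with its own scale) in 5 gates and in cells of no gate, NAPH left of Control, with exact 95% Poisson intervals for counting error. Cdkn1a, Mdm2 and Trp53inp1 peak in the ciliated gate in both libraries, Bax and Ccng1 are higher in myeloid than in ciliated cells, and Perp peaks in cells of no gate.

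Mdm2 stood at 192 CPM (173 to 213) in NAPH and 166 CPM (142 to 192) in Control ciliated cells, while in the other 4 gates it lay between 9.60 and 24.7 CPM in NAPH and between 5.88 and 21.8 CPM in Control. Trp53inp1, a nuclear protein that promotes p53-dependent death and autophagy, had 83.4 CPM (70.8 to 97.6) in NAPH and 82.9 CPM (66.7 to 102) in Control ciliated cells. In the other gates it stayed at or under 11.9 CPM in NAPH and 16.5 CPM in Control. Phlda3, which encodes a small pleckstrin-homology protein that restrains Akt, had 187 CPM (167 to 207) in NAPH and 81.1 CPM (65.1 to 99.8) in Control ciliated cells, against at most 19.2 CPM in the other NAPH gates and 16.8 CPM in the other Control gates.

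Relative to the median gene, ciliated cells exceeded other AT2 cells 3.51 times (3.19 to 3.86) for Cdkn1a in NAPH and 4.93 times (4.31 to 5.62) in Control. For Mdm2 the ratios were 6.56 (5.68 to 7.58) and 5.99 (4.91 to 7.30), NAPH first. For Phlda3 they were 13.4 (11.2 to 16.0) in NAPH and 7.57 (5.59 to 10.2) in Control, and for Trp53inp1 4.20 (3.43 to 5.13) in NAPH and 3.14 (2.44 to 4.03) in Control. Of the 10 members, 5 were higher in ciliated than in other AT2 cells in NAPH, where 31.0% of all genes were, and 6 in Control, where 31.1% were. Against secretory cells, 4 of 9 measured members were higher in each library, with a background of 31.1% in NAPH and 30.3% in Control, and 4 and 2 of 9 were lower, with 29.1% and 31.1% of all genes. Against myeloid cells, 5 of 9 were higher in NAPH and 5 of 10 in Control, with 35.4% and 34.9% of all genes, and 3 in each were lower, with 34.2% in NAPH and 35.2% in Control. Cdkn1a, Mdm2, Phlda3 and Trp53inp1 were higher in all 6 of these comparisons and were the only members to be so. The share of all genes higher in all 6 was not counted. The 6 comparisons reuse the same ciliated cells of each library and were added after the levels by gate were seen, so they are not independent.

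**Figure D2:**
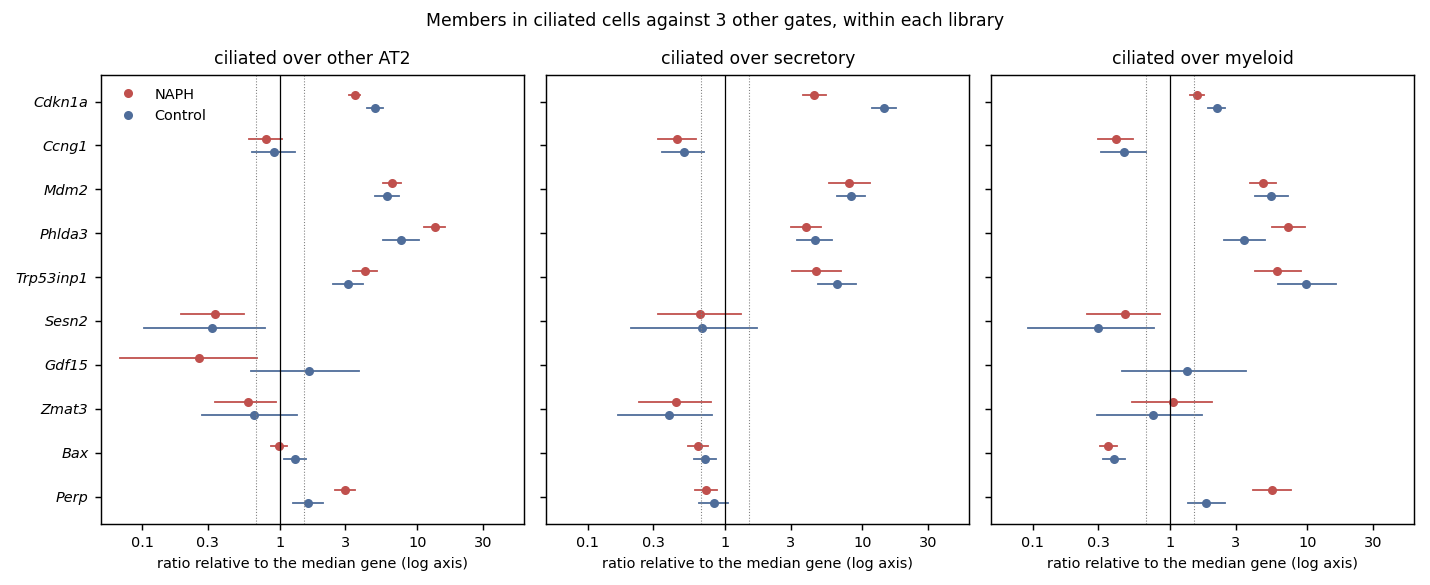
Ratio of each member in ciliated cells over other AT2, secretory and myeloid cells (x axis, log scale, relative to the median gene), NAPH above Control for each gene, with exact 95% intervals and dotted lines at 1.5 times higher and lower. Cdkn1a, Mdm2, Phlda3 and Trp53inp1 lie right of the upper dotted line in every panel, and genes with fewer than 20 UMIs in a pair are not drawn.

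Part of the set did not share this pattern. Bax, the pore-forming protein of mitochondrial apoptosis, had 133 CPM in NAPH and 122 CPM in Control ciliated cells but 226 and 223 CPM in myeloid cells, and relative to the median gene it stood at 0.994 (0.867 to 1.14) of other AT2 cells in NAPH and 1.29 (1.06 to 1.55) in Control. Ccng1, which encodes cyclin G1, had 33.7 CPM in NAPH and 32.8 CPM in Control ciliated cells, against 50.4 and 50.8 CPM in myeloid cells. Sesn2, a stress sensor that restrains mTORC1, had 8.55 CPM from 16 UMIs in NAPH ciliated cells and 4.55 CPM from 5 UMIs in Control ones. Relative to the median gene it was lower in ciliated than in other AT2 cells, at 0.335 (0.190 to 0.552) in NAPH and 0.322 (0.103 to 0.774) in Control. Members lower in that comparison numbered 3 of 10 in NAPH, where 29.4% of all genes were lower, and 2 of 10 in Control, where 31.4% were. Zmat3, an RNA-binding regulator of splicing, stood in ciliated cells at 0.584 (0.340 to 0.944) of other AT2 cells in NAPH and 0.645 (0.271 to 1.32) in Control, from 18 and 8 ciliated UMIs. Gdf15, a secreted stress cytokine, stood at 0.257 (0.0690 to 0.677) in NAPH and 1.64 (0.613 to 3.77) in Control, from 4 and 7 ciliated UMIs, and the Control value changed sign with other gate thresholds. Median mitochondrial shares were 5.16% in NAPH and 3.83% in Control ciliated cells, against 3.23% and 3.57% in other AT2 cells, and their part in these ratios was not tested.

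The difference was also seen cell by cell once total UMIs were made equal by thinning every cell to 3000 UMIs. Thinning leaves the share of UMIs spent on Sftpc and Scgb1a1, so the shares below are not scaled to the median gene. That gene stood 1.67 times higher in NAPH and 1.63 times in Control ciliated than other AT2 cells. Against secretory cells it stood 2.51 and 3.41 times higher. Cdkn1a was then found in 57.1% (49.9 to 64.1) of NAPH and 55.1% (47.6 to 62.4) of Control ciliated cells, against 14.5% and 10.0% of other AT2 cells. Without thinning the shares were 80.3% and 73.3% of ciliated cells and 31.1% and 21.1% of other AT2 cells, at median depths of 7947 and 5314 UMIs in ciliated and 9529 and 7667 UMIs in other AT2 cells. Mdm2 was found after thinning in 42.9% and 40.1% of ciliated cells, against 5.58% and 4.94% of other AT2 cells. A median of 2 of the 10 genes was found per thinned ciliated cell in both libraries, against 0 in other AT2 and secretory cells and 1 in myeloid cells. At least 3 of the 10 were found in 44.9% (37.9 to 52.2) of NAPH and 33.7% (27.0 to 40.9) of Control ciliated cells, against at most 8.71% in the other 4 gates and 28.7% and 32.0% of cells of no gate. No gate is known to lack these genes, so no share from free RNA alone could be set beside them.

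**Figure D3:**
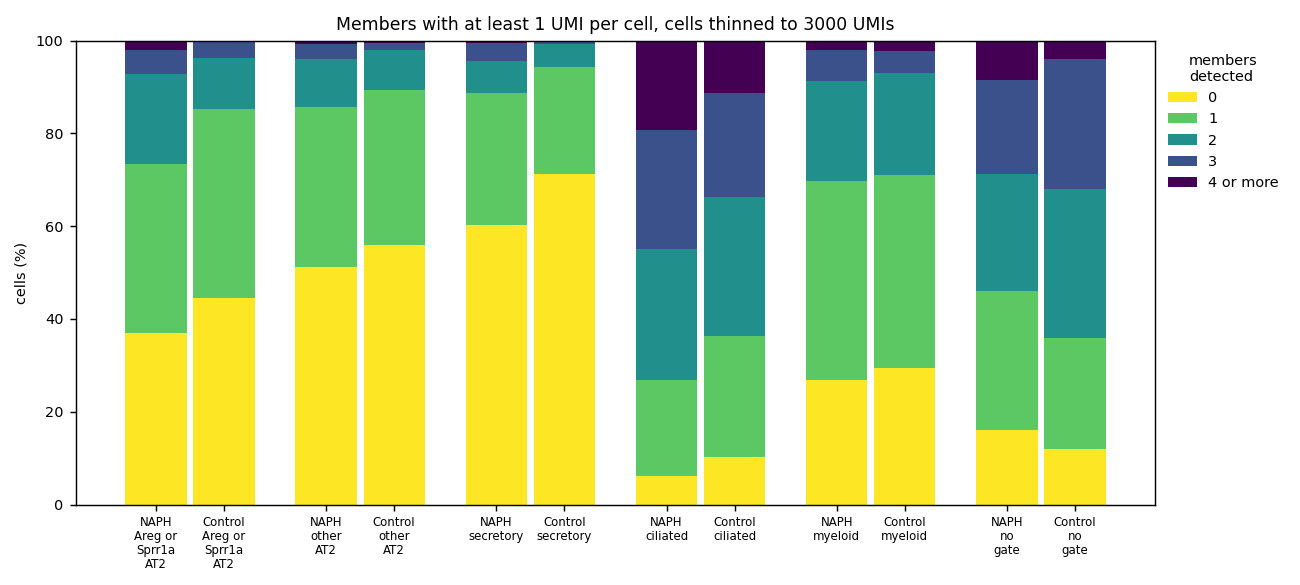
Share of cells (y axis, percent) in which 0, 1, 2, 3 or at least 4 of the 10 genes had a UMI, after thinning each cell to 3000 UMIs, by gate, NAPH left of Control. Ciliated cells have the smallest yellow segments, at 6.06% in NAPH and 10.2% in Control, meaning cells with none of the genes.

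Within the ciliated gate, Cdkn1a-rich cells were compared with cells in which no Cdkn1a was counted. Among thinned ciliated cells, those with at least 2 Cdkn1a UMIs numbered 43 in NAPH and 46 in Control, and those with none 85 and 84. Mdm2 stood 1.51 times (0.920 to 2.44) as high in Cdkn1a-rich as in Cdkn1a-free ciliated cells in NAPH and 1.31 times (0.777 to 2.19) in Control. For Phlda3 the ratio was 1.54 (0.940 to 2.51) in NAPH and 1.10 (0.488 to 2.35) in Control, and each of these 4 intervals includes 1. Areg stood at 1.90 times (1.43 to 2.52) in the Cdkn1a-rich ciliated cells of NAPH and 2.13 times (0.915 to 5.04) in those of Control. The most UMI-rich 1% of ciliated cells held 6.39% of the Mdm2 UMIs in NAPH and 8.79% in Control.

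The p53 family itself was not uniformly high there. Trp53 had 15.5 CPM in NAPH and 9.11 CPM in Control ciliated cells, against 42.7 and 43.9 CPM in myeloid, 23.9 and 12.5 CPM in secretory and 11.7 and 12.4 CPM in other AT2 cells. Trp73, which encodes p73, had 55.1 CPM (44.9 to 66.8) from 103 UMIs in NAPH and 81.1 CPM (65.1 to 99.8) from 89 UMIs in Control ciliated cells. Each of the other 4 gates held 0 to 6 Trp73 UMIs in NAPH and 0 to 7 in Control. Trp63 had 1 UMI in NAPH and 0 in Control ciliated cells. Of 15 to 16 measured regulators of p53, 4 to 5 were higher in ciliated cells and 2 to 7 lower, where 30.3% to 35.4% of all genes were higher and 29.1% to 35.2% lower. Atr, Chek2, Trp53bp1 and Trp73 were higher in all 6 comparisons. Of 16 to 17 measured immediate early genes, 7 to 14 were lower, where 29.1% to 35.2% of all genes were. Between 0 and 4 were higher, where 30.3% to 35.4% of all genes were. Fosb, Ier2, Jun and Nr4a1 were lower in all 6, and 0 were higher in all 6. Of a list of 41 other p53 targets, 26 to 30 reached 30 UMIs in these comparisons. Between 7 and 10 of them were higher in ciliated cells and between 6 and 13 lower, beside the same 30.3% to 35.4% and 29.1% to 35.2% of all genes. Of these targets, 5 were higher in all 6 comparisons: Ak1, an adenylate kinase, Cd82, a tetraspanin, Ddit4l, an inhibitor of mTOR signalling, the death receptor gene Fas and the translesion polymerase gene Polk. Fas exceeded other AT2 cells 11.4 times in NAPH and 20.6 times in Control. Btg2 and Ikbip were lower in all 6. For none of the lists in this paragraph was the share of all genes higher or lower in all 6 comparisons counted.

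Areg and Sprr1a are listed here among 13 markers of the transitional state, which summed to 6857 CPM in NAPH and 6768 CPM in Control Areg or Sprr1a AT2 cells, against 1643 and 1432 CPM in other AT2 cells. In the NAPH library the Areg or Sprr1a AT2 cells carried more Cdkn1a, Perp and Phlda3 than other AT2 cells. Cdkn1a stood at 158 CPM (138 to 179) in Areg or Sprr1a AT2 cells against 58.4 CPM (55.3 to 61.6) in other AT2 cells, a relative ratio of 2.56 (2.22 to 2.93). Perp, a membrane protein of desmosomes that takes part in p53-dependent death, stood at 46.7 CPM against 21.9 CPM, a ratio of 2.02 (1.55 to 2.58). After thinning to equal depth the Perp log2 ratio was 0.41, against 1.01 without it. Phlda3 stood at 17.5 CPM from 27 UMIs against 8.35 CPM, a ratio of 1.99 (1.28 to 2.98). Sesn2 went the other way, at 4.54 CPM from 7 UMIs against 15.3 CPM, a ratio of 0.281 (0.112 to 0.586). The remaining 6 members lay between 0.747 and 1.16, all with intervals that include 1, among them Mdm2 at 0.979 (0.642 to 1.44) and Bax at 1.13 (0.949 to 1.34). In all, 3 of 10 were higher, where 11.6% of all genes were, and 1 was lower, where 14.2% were.

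In the Control library the 27 Areg or Sprr1a AT2 cells gave the same direction for Cdkn1a, at 161 CPM (114 to 220) against 41.7 CPM (38.3 to 45.2) in other AT2 cells, a ratio of 3.49 (2.45 to 4.82). Perp stood at 49.5 CPM from 12 UMIs against 26.7 CPM, a ratio of 1.68 (0.858 to 2.96). Phlda3 had 2 UMIs in these cells and Sesn2 1, so neither could be placed. Members higher numbered 2 of 10, with 23.8% of all genes higher, and members lower 3 of 10, with 29.4% lower. Sesn2, Gdf15 and Zmat3, the 3 lower ones, had 1, 0 and 1 UMIs in the 27 cells, and their intervals include 1.

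**Figure D4:**
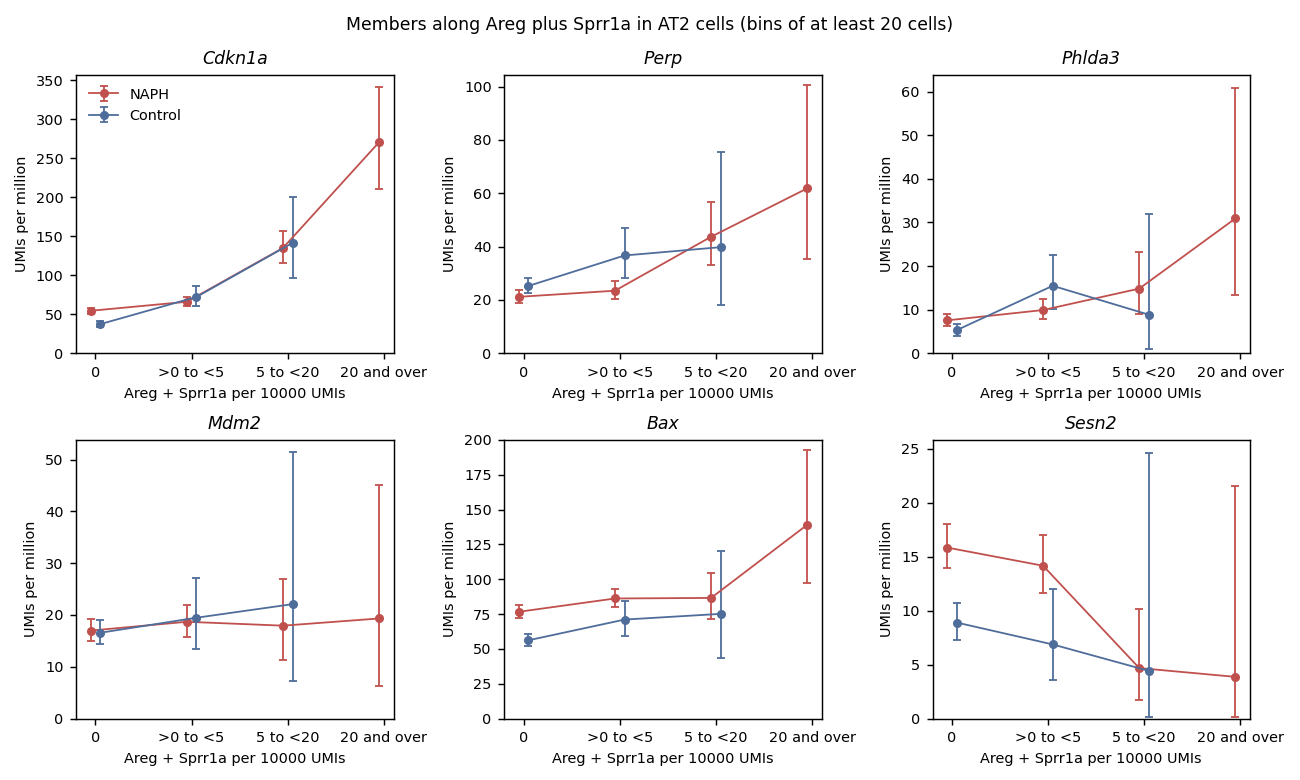
Level of 6 members (y axis, CPM) in AT2 cells by their UMIs of Areg plus Sprr1a per 10000 (x axis, 4 bins), for NAPH and Control, with exact 95% intervals. Cdkn1a climbs along the bins in both libraries while Mdm2 stays between 16.6 and 22.1 CPM, and the 2 Control cells of the highest bin are not drawn.

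Cdkn1a followed the amount of Areg and Sprr1a RNA within AT2 cells. In NAPH it had 54.4 CPM (50.8 to 58.2) in 1619 cells with none, 66.0 CPM (60.5 to 71.9) in 727 cells below 5 per 10000 UMIs, 135 CPM (116 to 157) in 128 cells between 5 and 20 and 271 CPM (211 to 342) in 26 cells at 20 and over. In Control it had 37.3 CPM (33.9 to 40.9), 72.2 CPM (60.1 to 85.9) and 141 CPM (96.7 to 200) in the first 3 bins, and only 2 cells filled the highest. The median depth of these bins ranged between 9012.5 and 10431 UMIs in NAPH and between 7579 and 8700 UMIs in the first 3 Control bins. Bax had 139 CPM (97.5 to 193) in the highest NAPH bin, against 76.6 CPM (72.3 to 81.1) in cells with none. Ccng1 had 58.0 CPM (32.5 to 95.6) in that bin against 25.1 CPM (22.6 to 27.7). These levels rest on 26 cells with 36 Bax and 15 Ccng1 UMIs.

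Cell cycle genes stood higher beside these members, in a NAPH comparison where 11.6% of all genes were higher and 14.2% lower. Of 19 cell cycle genes with at least 30 UMIs, 16 were higher in Areg or Sprr1a AT2 cells than in other AT2 cells in NAPH, with a median of 1.24 on the log2 scale. Rrm2, a ribonucleotide reductase subunit, led them at 16.7 (10.7 to 26.1), followed by the topoisomerase gene Top2a at 5.43 and Birc5, a mitotic survivin, at 3.96, and the lowest were Cdc20 at 0.963, Mcm4 at 1.29 and Mcm2 at 1.36. Their summed level was 351 CPM in NAPH and 602 CPM in Control Areg or Sprr1a AT2 cells, against 139 and 117 CPM in other AT2 cells. The part of dividing cells in the Cdkn1a ratio was not tested. Of 17 immediate early genes, which dissociation of tissue can switch on, 6 were higher and 0 lower, with Klf2 at 2.61, Hspa1b at 2.57 and Ier3 at 2.45 the highest and Zfp36 at 0.970, Dusp1 at 0.971 and Ier2 at 0.997 the lowest. Their part in the ratio was not tested either.

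Among other genes of the pathway, the list of 41 further targets had 30 measured, 5 higher and 2 lower. In this NAPH comparison 11.6% of all genes were higher and 14.2% lower, which applies to each list of this paragraph. Sfn, the cell cycle regulator 14-3-3 sigma, stood at 380 CPM in Areg or Sprr1a AT2 cells against 75.2 CPM in other AT2 cells, a ratio of 4.79 (4.35 to 5.26), but it is also a listed marker of the transitional state that the gate selects. Ckap2 followed at 2.55 (0.962 to 5.76) and Plk3 at 2.12 (0.972 to 4.14), and the lowest were Ak1 at 0.596 (0.405 to 0.849), Ikbip at 0.617 (0.197 to 1.48) and Rap2b at 0.747 (0.199 to 1.99). Of 15 measured regulators of p53, 2 were higher and 2 lower. The highest were Trp53bp1 at 1.74 (1.07 to 2.72), Trp53 at 1.52 (0.998 to 2.23) and Hipk2 at 1.43 (0.857 to 2.28), and the lowest Sirt1 at 0.246 (0.0664 to 0.638), Chek2 at 0.430 and Usp7 at 0.790. Of 18 genes of the integrated stress response, a translation control pathway, 3 were higher and 5 lower. Atf3 at 4.05 (2.98 to 5.43), Psat1 at 2.84 (1.82 to 4.28) and Shmt2 at 1.66 led them, while Chac1 at 0.468, Cth at 0.478 (0.307 to 0.712) and Vldlr at 0.499 (0.277 to 0.832) closed them. Of the 6 other cyclin-dependent kinase inhibitor genes, Cdkn3 at 2.43 (1.24 to 4.40) and Cdkn2d at 1.79 (1.23 to 2.54) were higher, Cdkn1c stood at 1.22, and Cdkn2c at 0.956, Cdkn1b at 1.06 and Cdkn2b at 1.07 were the lowest.

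Outside the transitional gate, Cdkn1a-rich AT2 cells held more of certain members and of certain other genes. Inside it, the 22 such cells of NAPH, set against 100 with none, gave wide intervals that include 1 for every other member. Ccng1 stood there at 2.60 times (0.558 to 10.2), Bax at 1.98 times (0.840 to 4.32) and Phlda3 at 3.03 times (0.629 to 12.8). A difference from the cells outside the gate cannot be read from so few cells. In NAPH, the 62 thinned other AT2 cells with at least 2 Cdkn1a UMIs had 8.09 times (2.98 to 18.9) the Phlda3 of the 2005 cells with none, from 7 and 28 UMIs. They had 3.02 times (1.57 to 5.34) the Ccng1 and 1.86 times (1.20 to 2.76) the Bax, whereas Mdm2 stood at 1.14 times (0.307 to 3.01). In Control, 26 Cdkn1a-rich other AT2 cells had 17.4 times (5.76 to 44.6) the Phlda3 of 1586 cells with none, from 6 and 21 UMIs. Ccng1 stood there at 2.82 times (0.899 to 6.80) and Bax at 2.04 times (0.923 to 3.93), and Mdm2 had 0 UMIs in the 26 cells. Areg stood at 1.82 times (1.07 to 2.93) in the NAPH and 4.52 times (1.61 to 10.3) in the Control cells rich in Cdkn1a. These ratios are of plain thinned CPM and describe cells within 1 library.

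Between the libraries, other AT2 cells held more Gdf15 and Sesn2 in NAPH. Sesn2 had 15.3 CPM (13.7 to 17.0) in NAPH and 8.65 CPM (7.17 to 10.3) in Control, a relative ratio of 1.66 (1.35 to 2.06). Gdf15 had 4.98 CPM (4.11 to 5.98) in NAPH and 2.38 CPM (1.64 to 3.34) in Control, a ratio of 1.97 (1.32 to 2.99). The richest 1% of cells held 62.6% of the Gdf15 UMIs in NAPH and 78.8% in Control, and without them the ratio on the log2 scale was 1.79, against 0.98 with them. With gate thresholds halved it was 0.34. Of the 10 members 2 were higher, where 8.24% of all genes were, and 0 lower, where 8.28% were.

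Smaller differences left out 1 from their intervals in the same gate. Cdkn1a had 58.4 CPM in NAPH and 41.7 CPM in Control other AT2 cells, a ratio of 1.32 (1.19 to 1.45), Bax had 79.9 and 58.0 CPM, a ratio of 1.29 (1.19 to 1.41), and Zmat3 had 9.87 and 6.92 CPM, a ratio of 1.34 (1.05 to 1.72). Trp53inp1 was at 11.9 CPM in NAPH and 16.1 CPM in Control, a ratio of 0.693 (0.579 to 0.830), and Perp at 21.9 and 26.7 CPM, a ratio of 0.773 (0.675 to 0.887). Mdm2, at 17.6 CPM in NAPH and 16.9 CPM in Control, had a ratio of 0.975 (0.828 to 1.15).

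Sesn2 and Gdf15 are also induced by the integrated stress response, and 7 of its 18 measured genes were higher in NAPH other AT2 cells, with 1 lower and a median of 0.41 on the log2 scale. For this and the other lists of this paragraph, 8.24% of all genes were higher and 8.28% lower. Chac1 stood at 6.42 times (3.12 to 15.3), Atf3 at 2.25 times (1.65 to 3.11) and Slc7a5 at 2.03 times (1.53 to 2.73), and the lowest were Vldlr at 0.495 times, Nupr1 at 0.747 times and Trib3 at 0.946 times. Its part in the Sesn2 and Gdf15 ratios was not tested. Of 31 measured other p53 targets 4 were higher and 2 lower, with Ckap2 at 3.14 (1.39 to 8.33), Plk3 at 2.10 (1.23 to 3.76) and Aen, a nuclease of apoptosis, at 2.06 (1.63 to 2.62) above Rrm2b at 0.688 (0.555 to 0.853), Xpc at 0.611 (0.503 to 0.742) and Ephx1 at 0.551 (0.460 to 0.660). Of 16 measured regulators 0 were higher and 1 lower. Ppm1d, a phosphatase that dampens p53, stood at 1.46 (1.14 to 1.89), Rps27l at 1.14 and Rfwd2 at 1.02, and the lowest were Atm at 0.532 (0.354 to 0.799), Chek2 at 0.690 and Hipk2 at 0.834. Cell cycle genes numbered 7 higher and 3 lower of 20, from Ccnb1 at 7.34, Plk1 at 2.40 and Cdc20 at 2.08 to Mcm5 at 0.564, Rrm2 at 0.376 and Ccne2 at 0.293. Immediate early genes numbered 5 higher of 17, from Socs3 at 2.96, Klf2 at 2.96 and Nr4a1 at 2.22 to Fosb at 0.924, Jun at 0.823 and Btg1 at 0.820. Among the kinase inhibitor genes Cdkn3 stood at 3.90, Cdkn2b at 1.67 and Cdkn2c at 1.30, and Cdkn1b at 0.939, Cdkn2d at 0.874 and Cdkn1c at 0.829.

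**Figure D5:**
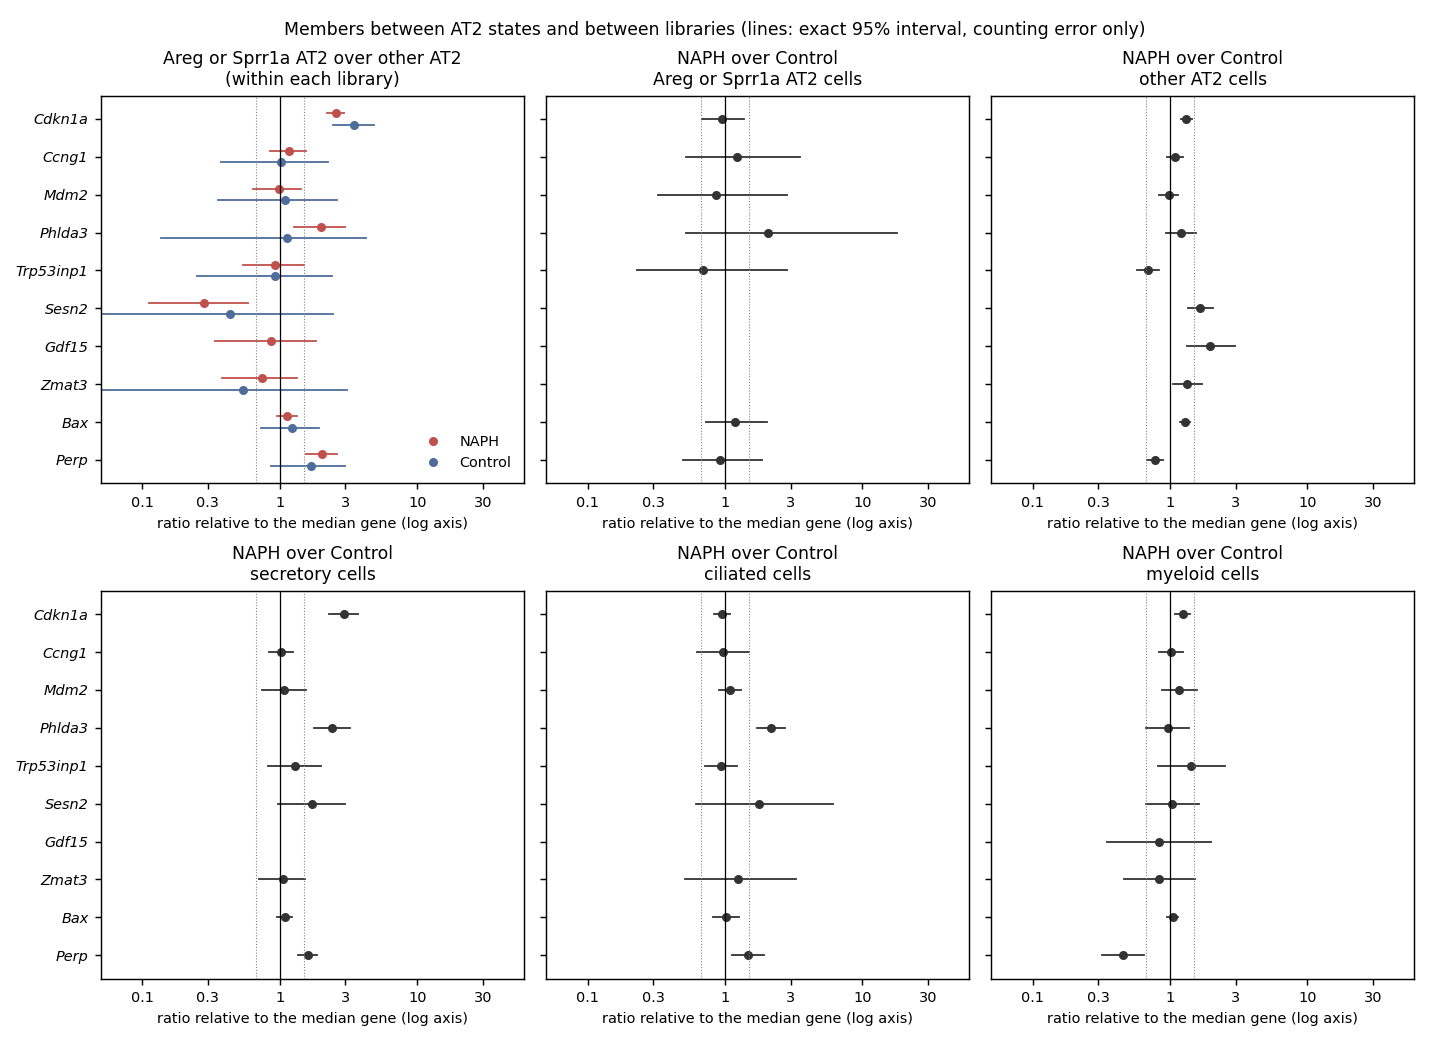
Ratio of each member relative to the median gene (x axis, log scale) between AT2 states within each library, and between NAPH and Control in each gate, with exact 95% intervals cut at the axis limits and dotted lines at 1.5 times higher and lower. Secretory cells show Cdkn1a at 2.92, Phlda3 at 2.39 and Perp at 1.59, myeloid cells show Perp at 0.457, and genes with fewer than 20 UMIs in a pair or 0 UMIs in the first sum are not drawn.

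Secretory cells, which line the airway, showed more members higher in NAPH than any other gate. Cdkn1a had 30.4 CPM (25.4 to 36.1) in 186 NAPH cells and 6.90 CPM (5.81 to 8.12) in 751 Control cells, a relative ratio of 2.92 (2.28 to 3.73). Phlda3 had 19.2 CPM (15.3 to 23.8) in NAPH and 5.31 CPM (4.36 to 6.39) in Control, a ratio of 2.39 (1.78 to 3.21), and Perp had 59.7 CPM (52.6 to 67.5) in NAPH and 24.8 CPM (22.7 to 27.1) in Control, a ratio of 1.59 (1.36 to 1.85). Sesn2, from 22 NAPH and 41 Control UMIs, had a ratio of 1.72 (0.978 to 2.96). Members higher were thus 4 of 9, where 12.0% of all genes were higher, and 0 were lower, where 12.8% were. Mdm2 at 1.08 (0.738 to 1.55), Ccng1 at 1.02 (0.832 to 1.25) and Bax at 1.09 (0.961 to 1.23) did not exceed the median gene beyond their intervals.

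The Cdkn1a difference lay in few secretory cells. It had a UMI in 29 of 186 NAPH cells, or 15.6% (10.7 to 21.6), and in 71 of 751 Control cells, or 9.45% (7.46 to 11.8), at median depths of 22606 and 29298 UMIs. The richest 1% of cells held 46.9% of its UMIs in NAPH and 47.5% in Control, and without them the log2 ratio was 1.53, against 1.55 with them. Thinned to 3000 UMIs per cell it was 0.73, and with gate thresholds doubled it was 0.91. Under doubled thresholds the Phlda3 log2 ratio was 0.70, against 1.26. All 18 measured cell cycle genes were higher in NAPH secretory cells, where 12.0% of all genes were, with a median of 3.09 on the log2 scale. The summed level of the list was 281 CPM in NAPH and 33.1 CPM in Control. The part of these genes in the member ratios was not tested. The gate itself differed between libraries, as Scgb1a1 supplied more of the UMIs in Control. Marker lists of other cells were also higher in NAPH secretory cells: the 13 transitional markers summed to 2755 CPM in NAPH and 1070 CPM in Control, the 6 AT1 markers to 1168 and 316 CPM, the 8 AT2 markers to 21230 and 9510 CPM and the 6 goblet markers to 2334 and 1282 CPM. Their part in the Cdkn1a, Phlda3 and Perp ratios was not tested.

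In ciliated cells the libraries differed mainly in Phlda3. Its 187 CPM in NAPH and 81.1 CPM in Control gave a ratio of 2.15 (1.70 to 2.75), and after thinning it was found in 41.4% (34.5 to 48.6) of NAPH and 20.9% (15.3 to 27.4) of Control cells. Perp had 110 CPM in NAPH and 70.1 CPM in Control, a ratio of 1.46 (1.12 to 1.92), and Sesn2 a ratio of 1.76 (0.615 to 6.13) from 16 and 5 UMIs. Cdkn1a at 0.954 (0.838 to 1.09), Mdm2 at 1.08 (0.906 to 1.30) and Trp53inp1 at 0.941 (0.722 to 1.23) had intervals that include 1. Members higher were 2 of 9, where 16.1% of all genes were, and 0 were lower, where 9.90% were. Areg stood at 456 CPM in NAPH and 68.3 CPM in Control ciliated cells, the transitional markers summed to 4819 and 2095 CPM, and their part in the Phlda3 ratio was not tested. Trp73 stood at 0.635 (0.474 to 0.853).

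In Areg or Sprr1a AT2 cells the comparison between libraries rested on 154 NAPH and 27 Control cells. Cdkn1a had 158 CPM in NAPH and 161 CPM in Control, a ratio of 0.957 (0.680 to 1.38). Only Phlda3 passed 1.5 times, at 2.07 (0.521 to 18.0), so that 1 of 7 measured members was higher, where 21.4% of all genes were, and 0 lower, where 17.3% were.

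In the myeloid gate 0 of 10 members were higher in NAPH, where 9.54% of all genes were, and 1 was lower, where 9.03% were. That one was Perp, with 12.1 CPM (9.06 to 15.9) in NAPH and 27.4 CPM (22.4 to 33.2) in Control, a ratio of 0.457 (0.321 to 0.643). Its log2 ratio of -1.13 became 0.02 when gate thresholds were halved. Cdkn1a had 132 CPM in NAPH and 110 CPM in Control, a ratio of 1.24 (1.09 to 1.41). Bax, at 226 and 223 CPM, had a ratio of 1.04 (0.950 to 1.15). The Igkc RNA named above stood at 5625 CPM in NAPH and 0 CPM in Control, and its part in the Perp ratio was not tested.

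In cells of no gate Perp stood highest. It had 265 CPM (241 to 291) in 167 NAPH cells and 379 CPM (292 to 484) in 25 Control cells, above its level in each of the 5 gates of either library. Phlda3 had 157 CPM (139 to 178) in NAPH, below the ciliated gate, and 196 CPM (135 to 275) in Control, above every gate. Bax had 222 and 207 CPM, close to its myeloid levels. These cells also held the basal cell keratin gene Krt5 at 108 CPM in NAPH and 332 CPM in Control, Trp63, which encodes p63 and is a marker of basal cells, at 49.0 and 88.9 CPM, and the neuroendocrine peptide gene Calca at 418 and 782 CPM. In each of the 5 gates Krt5 was at or under 1.87 CPM and Trp63 at or under 0.936 CPM. Marker lists of other cells were counted there too. Club markers summed to 52070 CPM in NAPH and 17140 CPM in Control. Transitional markers summed to 6587 and 5683 CPM and AT1 markers to 2666 and 2785 CPM, NAPH first. Of the 167 NAPH cells, 90 held a Perp UMI, 25 a Krt5, 35 a Trp63 and 20 a Calca UMI. Which cells carried the Perp and Phlda3 RNA was not tested.

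Across the 10 sums of gate and library the members paired off unevenly. Mdm2 correlated with Trp53inp1 at r = 0.94 and with Phlda3 at r = 0.90, and Ccng1 with Bax at r = 0.99, whereas Sesn2 with Perp gave r = -0.32. These are descriptions over 10 points of log2(CPM + 1) that share libraries, depth and the weight of Sftpc and Scgb1a1. Over the 10992 genes searched, the patterns most like Cdkn1a were Fam96b (r = 0.993), Cops8 (0.991) and Denr (0.987). Those most like Mdm2 were Gtf2b and Odf2 (0.994 each) and Kdm1a (0.991), those most like Ccng1 were Uqcrfs1 (0.988), Bax (0.986) and Capza1 (0.981), those most like Perp were Galnt3 (0.947), Acer2 and Ankrd9 (0.904 each), and those most like Gdf15 were Ostm1 (0.949), Ap3d1 and Gcn1l1 (0.928 each).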

How the data were processed

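The deposited values are UMI counts per gene and barcode, whole numbers that, per the submitters' processing notes, were made with Cell Ranger on the mm10 mouse genome. No source used here states its version, its settings or how it called cells. Barcodes had to hold at least 500 genes and 1000 UMIs, with at most 20% mitochondrial, which left out 4 in NAPH and 0 in Control. Scrublet (scanpy 1.11.5, Python 3.11.15) called 0.0815% doublets in NAPH and 0.243% in Control, too few, so the highest scores were removed at 0.8% per 1000 barcodes, 109 and 87 cells, leaving 3572 and 3211. Free RNA was not removed.

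UMIs were summed per gate and library. Ratios were divided by the median ratio of genes with at least 20 UMIs, and intervals are exact conditional Poisson for ratios, exact Poisson for levels and Clopper-Pearson for shares, all at 95%. The effect of depth was checked by thinning each cell to 3000 UMIs. TMM factors came from edgeR 4.0.16 (R 4.3.3). The ratio step was tested on simulated counts with known ratios. The thinning step was checked on Control cells for its totals and for counts above their source.

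The members, gene lists, gates and tests were chosen with earlier results of these data known, and the ciliated comparisons were added after the levels by gate were seen. All 10 members are described. Of 6 other lists, genes with at least 30 UMIs were counted, and the 3 highest and 3 lowest ratios named for 2 comparisons. For 5 members, the 3 genes with the highest correlation over 10 sums were named among genes with at least 100 UMIs.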

Additional observations from a re-analysis of the deposited data

Results flagged for a closer look

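Perp pointed in opposite directions in 2 gates between the same libraries. It was higher in NAPH than in Control secretory cells, at 1.59 relative to the median gene, and lower in NAPH than in Control myeloid cells, at 0.4566, and both intervals leave out 1. The difference between the gates was not tested, since each rests on 1 library per condition. The level in NAPH and Control was 59.7 and 24.8 CPM in secretory cells and 12.1 and 27.4 CPM in myeloid cells. Under halved gate thresholds the myeloid ratio was 0.02 on the log2 scale.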

How the results depend on the processing

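Of 1636 member ratios recomputed under other settings, 1513 stayed within their counting interval, 109 moved outside it, and 14 that were past 1.5 times changed sign. A further 90, counted among the 1513 and 109, changed sign from a ratio under 1.5 times, 18 of them outside the interval. Each count below is of members at least 1.5 times higher. In Areg or Sprr1a over other AT2 cells of NAPH, 3 members became 6 with gate thresholds doubled and 5 with the split at 10, and 2 with cells thinned or at a fold of 2. In Control, 2 became 7 with thresholds doubled, 6 with the split at 10, 5 with the split at 2, and 1 under TMM scaling or a fold of 2. For NAPH over Control in Areg or Sprr1a AT2 cells, 1 became 2 with thresholds halved, the split at 2 or a minimum of 10 UMIs, and 0 with thresholds doubled, the split at 10, thinned cells or a minimum of 50 UMIs. In other AT2 cells 2 became 1 with thresholds halved or cells thinned, 0 at a fold of 2, and 3 without the top 1% of cells. In secretory cells 4 became 9 by plain CPM ratio and 2 by mean per-cell CPM or at a fold of 2. In ciliated cells 2 became 1 with thresholds halved, a minimum of 50 UMIs or a fold of 2, and 3 with cells of more than 1 gate kept, by plain CPM ratio or without surfactant, secretoglobin, ribosomal and mitochondrial genes. In myeloid cells 0 became 2 with thresholds halved or cells thinned, and 1 with no doublet removal or without the top 1% of cells. For ciliated over secretory cells, 4 became 7 in NAPH and 8 in Control by plain CPM ratio. Plain ratios move with the median gene by construction; for the other settings the cause was not tested.

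The log2 ratios past 1.5 times that changed sign were these. Sesn2 in Areg or Sprr1a over other AT2 cells of Control was 0.10 with thresholds halved, Phlda3 of NAPH over Control in Areg or Sprr1a AT2 cells -0.37 with the split at 2, and Perp of NAPH over Control in myeloid cells 0.02 with thresholds halved. For ciliated over other AT2 cells of Control, Gdf15 was -0.36 with thresholds doubled and -0.64 halved, and Zmat3 0.07 by plain ratio and 0.05 thinned. For ciliated over secretory cells by plain ratio, NAPH gave Ccng1 0.18, Sesn2 0.73, Zmat3 0.15 and Bax 0.68, and Control gave Ccng1 0.77 and Zmat3 0.42. Sesn2 in NAPH was 0.41 there by mean per-cell CPM.

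No paired analysis was possible because each condition has 1 library. Differences between the libraries cannot be told apart from differences between animals, sorts or preparations, and the 27 Control Areg or Sprr1a AT2 cells limit every comparison that uses them. Free RNA, whose level differed between the libraries, was not removed.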
